A study of Mus musculus with 10 samples.

Results

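The interferon regulatory factor (IRF) genes encode transcription factors that share a DNA-binding domain and act downstream of interferons and of microbial sensors. The members described here are Irf1, Irf2, Irf3, Irf4, Irf5, Irf7, Irf8 and Irf9, chosen by symbol, and all 8 were found among the 18223 genes of the table. They were measured by bulk RNA sequencing in 10 whole subcutaneous tumours of MC38, a mouse colon adenocarcinoma line, 5 with high tumour burden (HTB) and 5 with low tumour burden (LTB). The treatment label reads 2000000 for 14 days in HTB and 500000 for 14 days in LTB, and does not say what the number counts. Labels name no host strain, sex or age, and nothing says whether the libraries of a group came from separate animals, so p-values measure the spread between these libraries. The study's title concerns macrophages linked to high baseline tumour burden and the response to checkpoint inhibitors.

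IRF proteins bind variants of the interferon-stimulated response element (ISRE). IRF3 and IRF7 are phosphorylated after nucleic acid sensing and switch on type I interferon genes, IRF5 acts with MyD88 in inflammatory cytokine induction, and IRF9 joins STAT proteins in the complex ISGF3, which carries the type I interferon signal to antiviral genes. IRF1 is induced by interferon gamma and drives antigen presentation genes, and IRF2 competes with it at shared sites. IRF4 and IRF8 are found mainly in blood cells, bind DNA with partners such as PU.1 or BATF, and shape lymphocytes, macrophages and dendritic cells.

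Libraries held 24884292 to 27185168 estimated reads on genes in HTB and 23070917 to 26880191 in LTB. HTB replicate 2 stood apart: 10 skeletal muscle genes summed to 14864 counts scaled to library size (CPM) there, the highest HTB value, against 4.89 to 8.21 CPM in LTB, and 10 adipocyte genes to 5809 CPM, against 65.0 to 108 CPM in LTB. Among LTB libraries, replicate 1 had the highest level of 7 of the 8 IRF genes, all but Irf3, and in HTB replicate 2 had the lowest level of 4 (Irf2, Irf3, Irf7 and Irf9). HTB replicate 2 also had the highest HTB level of Irf4 and Irf5. Epithelial keratin genes were close to 0 in both groups, with 16 and 4 reads in all for Krt8 and 8 and 0 reads for Krt18 in HTB and LTB. Others went the other way or were level, with 4 and 14 reads for Krt19, 25 and 35 for Krt7 and 5 and 5 for Krt20. The part of muscle or fat RNA in the IRF levels was not tested.

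Of the 8 IRF genes, 6 were lower in HTB than in LTB and 0 were higher (edgeR quasi-likelihood test, Benjamini-Hochberg adjusted p under 0.05 over 13469 tested genes). Of all tested genes, 7.51% were lower and 3.91% were higher by the same rule. By DESeq2 0 members were higher too, where 7.91% of all tested genes were. The lower genes were Irf1, Irf2, Irf4, Irf5, Irf8 and Irf9, and Irf3 and Irf7 did not pass. The members' median log2 fold change was -0.79, against 0.02 over all tested genes. The fall reached 2-fold in Irf1, Irf4, Irf5 and Irf8, 4 genes, where 4.05% of tested genes fell that far and passed. In 5 members, Irf1, Irf2, Irf5, Irf8 and Irf9, every HTB library lay below every LTB library, as it did in 7.40% of tested genes, and in 0 members did every HTB library lie above, as it did in 4.13%. In whole tumour RNA, fewer cells of a type and less RNA per cell cannot be told apart. The authors' deposited table also lists 6 members as lower at q under 0.05, where 7.66% of its genes are lower, and 0 as higher, where 6.86% are. Without HTB replicate 2 and LTB replicate 1 together the same 6 were lower, where 12.4% of all tested genes were. With any 1 library left out the count was 4 to 6, with 4 without HTB replicate 3, HTB replicate 4 or LTB replicate 3. In those 3 fits fewer of all tested genes were lower too, 4.12%, 4.16% and 5.16%.

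**Figure D1:**
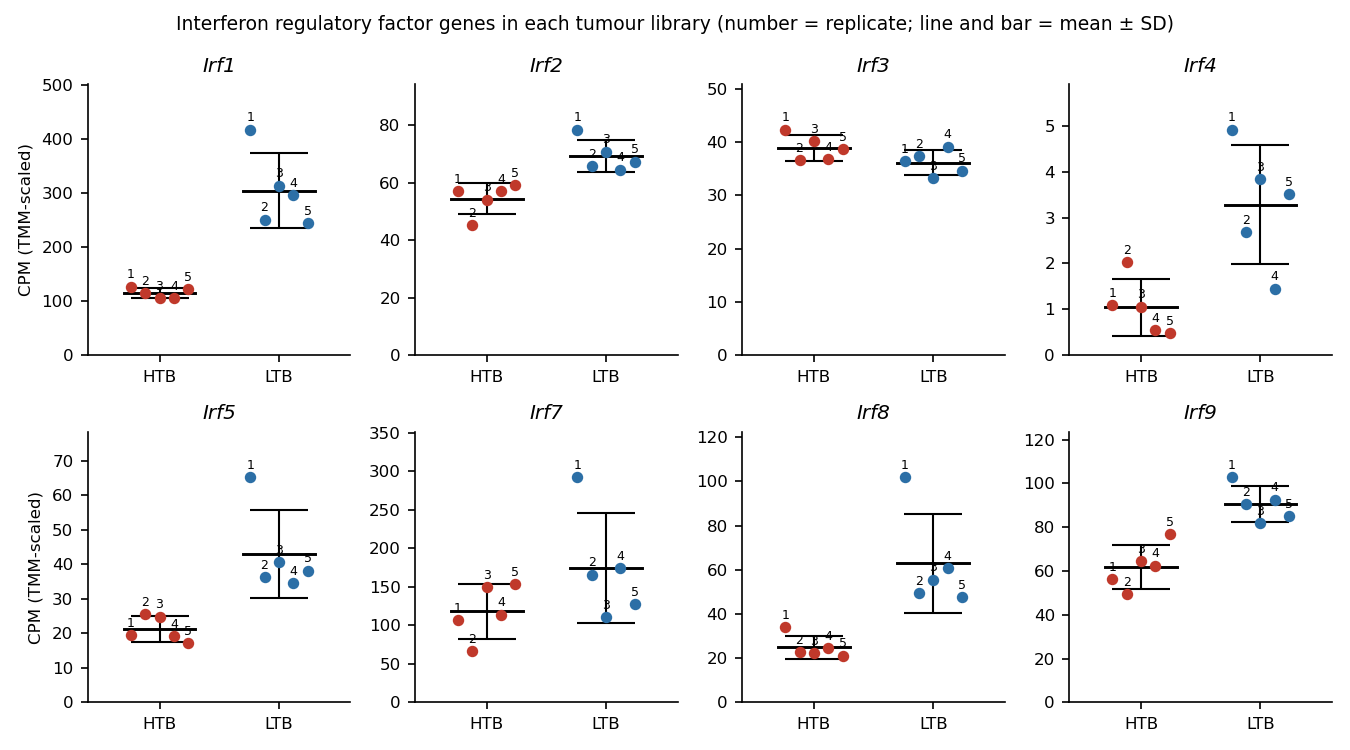
Level of each IRF gene in CPM, 1 point per library, with HTB left of LTB in each panel and the group mean and SD drawn beside the points. The HTB points lie below all LTB points for Irf1, Irf2, Irf5, Irf8 and Irf9 and overlap them for Irf3, Irf4 and Irf7.

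Irf1, the activator induced by interferon gamma, fell with the smallest p of the family. It had 127, 115, 106, 106 and 122 CPM in HTB replicates 1 to 5, against 418, 251, 314, 296 and 245 CPM in LTB replicates 1 to 5. No HTB library came near the lowest LTB library, and the HTB values were also the more alike. The means were 115 ± 9.55 CPM in HTB and 305 ± 69.7 CPM in LTB (SD, n = 5 each), which is a log2 fold change of -1.40 ± 0.14 (SE; 95% interval -1.71 to -1.09; edgeR adjusted p = 5.93e-04). It ranked 19 by p among all tested genes. Irf1 lies on chromosome 11 of GRCm38, chr11:53770014-53778374, on the plus strand, and 135 bases of its exons are shared with the opposite-strand gene Gm17334.

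Irf2, the competitor of IRF1, fell by far less. It had 57.1, 45.1, 54.1, 56.9 and 59.0 CPM in HTB replicates 1 to 5, against 78.4, 65.6, 70.7, 64.5 and 67.2 CPM in LTB replicates 1 to 5. The groups did not overlap, although the highest HTB library was close to the lowest LTB library. The means were 54.4 ± 5.52 CPM in HTB and 69.3 ± 5.60 CPM in LTB (SD, n = 5 each), which is a log2 fold change of -0.34 ± 0.08 (SE; edgeR adjusted p = 0.0238). The call was lost without HTB replicate 3 (adjusted p = 0.0626), HTB replicate 4 (adjusted p = 0.0504) or LTB replicate 3 (adjusted p = 0.0543). Irf2 lies at chr8:46739745-46847458 on the plus strand of GRCm38.

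The ratio of Irf1 to Irf2 sets the activator against its competitor within a library. It was 2.22, 2.56, 1.96, 1.85 and 2.07 in HTB replicates 1 to 5, against 5.33, 3.83, 4.43, 4.59 and 3.64 in LTB replicates 1 to 5. Every HTB ratio was below every LTB ratio. On the log2 scale the difference was -1.03, from means of 1.08 ± 0.18 in HTB and 2.11 ± 0.22 in LTB (SD, n = 5 each; exact permutation test, two-sided, p = 0.0079, the smallest that 252 splits can give; 0.0198 adjusted over 5 ratios). Irf1 thus changed more than Irf2 in these libraries.

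The promoter windows of Irf1 and Irf2 are shown because interferon gamma signals through a palindromic STAT site, and IRF proteins bind the ISRE. Each window runs from 250 bases before to 50 bases after the RefSeq gene start (GRCm38.p6, plus strand for both), and capitals mark matches on either strand to TTCNNNGAA (the STAT site, called GAS), GAAANNGAAA (the ISRE core), GGAANNGAAA (the composite site of PU.1 with IRF4 or IRF8) and the NF-kappaB motif.
Irf1, chr11:53769764-53770063: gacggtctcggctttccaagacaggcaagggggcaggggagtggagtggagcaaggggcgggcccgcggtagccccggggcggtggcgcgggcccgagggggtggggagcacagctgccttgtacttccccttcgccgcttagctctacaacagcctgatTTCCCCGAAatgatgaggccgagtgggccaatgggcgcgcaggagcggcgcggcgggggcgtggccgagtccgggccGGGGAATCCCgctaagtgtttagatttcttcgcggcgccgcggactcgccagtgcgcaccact
Irf2, chr8:46739495-46739794: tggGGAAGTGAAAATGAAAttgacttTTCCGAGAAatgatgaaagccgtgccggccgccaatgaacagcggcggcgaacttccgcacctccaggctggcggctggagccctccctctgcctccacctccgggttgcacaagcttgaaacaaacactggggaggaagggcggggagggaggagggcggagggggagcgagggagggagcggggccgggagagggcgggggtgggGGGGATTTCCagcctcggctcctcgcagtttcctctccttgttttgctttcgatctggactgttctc
The Irf1 window held TTCCCCGAA from 90 to 82 bases before the start and an NF-kappaB match, GGGGAATCCC, close to the start. The Irf2 window held GAAAATGAAA, an ISRE core that overlaps the composite match GGAAGTGAAA, then a GAS match, TTCCGAGAA, and an NF-kappaB match, GGGGATTTCC. Of 32851 mouse windows of this length, 8.30% held a GAS match, 3.44% an ISRE core, 2.72% the composite and 8.46% the NF-kappaB motif. A match is a description of letters and does not show that a factor bound.

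Irf8, which directs macrophage and conventional dendritic cell development, was lower in HTB in every library. It had 34.1, 22.6, 22.4, 24.6 and 21.1 CPM in HTB replicates 1 to 5, against 102, 49.3, 55.5, 60.7 and 47.6 CPM in LTB replicates 1 to 5. HTB replicate 1 and LTB replicate 1 were each well above the rest of their group. The means were 25.0 ± 5.27 CPM in HTB and 63.0 ± 22.3 CPM in LTB (SD, n = 5 each), which is a log2 fold change of -1.33 ± 0.22 (SE; edgeR adjusted p = 0.0054). Without LTB replicate 1 it was -1.09 (adjusted p = 0.0027). The gene lies at chr8:120736358-120756694 on the plus strand of GRCm38. Its promoter window, shown because IRF8 is also induced by interferon gamma, held a pair of GAS matches, TTCTCGGAA and TTCAGAGAA, in capitals here.
Irf8, chr8:120736108-120736407: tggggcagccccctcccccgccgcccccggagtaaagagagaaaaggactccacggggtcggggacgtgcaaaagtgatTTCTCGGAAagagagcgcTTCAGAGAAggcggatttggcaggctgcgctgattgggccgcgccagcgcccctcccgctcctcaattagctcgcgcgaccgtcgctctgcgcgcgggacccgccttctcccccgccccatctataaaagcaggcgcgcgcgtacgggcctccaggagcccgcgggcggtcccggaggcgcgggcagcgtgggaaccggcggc
In all, 11 windows were found for the 8 IRF genes, of which 3 held a GAS match. The windows of Irf3, Irf4, Irf5, Irf7 and Irf9 held none of the 4 motifs, which says only that these letters are not in those windows.

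Irf4, which acts in plasma cells, effector T cells and some dendritic cells, was the least abundant member. It had 1.09, 2.03, 1.06, 0.543 and 0.476 CPM in HTB replicates 1 to 5, against 4.92, 2.68, 3.84, 1.45 and 3.51 CPM in LTB replicates 1 to 5. The groups overlapped, since HTB replicate 2 was above LTB replicate 4. The means were 1.04 ± 0.623 CPM in HTB and 3.28 ± 1.30 CPM in LTB (SD, n = 5 each), which is a log2 fold change of -1.65 ± 0.44 (SE; 95% interval -2.61 to -0.68; edgeR adjusted p = 0.0367). This was the widest interval of the family, and the call was lost in 8 of 10 fits that left out 1 library, all but those without HTB replicate 2 (-2.04, adjusted p = 0.0073) and without LTB replicate 4. Irf4 lies at chr13:30749208-30766982 on the plus strand.

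Irf5, the MyD88-linked member, was 2.02-fold lower in HTB. It had 19.5, 25.5, 24.9, 19.2 and 17.1 CPM in HTB replicates 1 to 5, against 65.4, 36.3, 40.7, 34.6 and 38.2 CPM in LTB replicates 1 to 5. The groups did not overlap, and LTB replicate 1 was far above the other LTB libraries. The means were 21.3 ± 3.75 CPM in HTB and 43.0 ± 12.7 CPM in LTB (SD, n = 5 each), which is a log2 fold change of -1.01 ± 0.19 (SE; edgeR adjusted p = 0.0094), and without LTB replicate 1 it was -0.81 (adjusted p = 0.0057). Irf5 lies at chr6:29526130-29541869 on the plus strand, and 411 bases, 14.15% of its exons, are shared with the opposite-strand gene Tnpo3. No source used here states whether counting used strand, so Irf5 reads in that stretch are uncertain. Tnpo3 itself averaged 154 ± 5.21 CPM in HTB and 142 ± 4.82 CPM in LTB and did not pass (log2 fold change 0.12, edgeR adjusted p = 0.1316).

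Ratios among these 3 members did not separate the groups. The log2 ratio of Irf4 to Irf8 was -4.60 ± 0.77 in HTB and -4.27 ± 0.63 in LTB (SD, n = 5 each), a difference of -0.33 (exact permutation test, two-sided, p = 0.4365), whose sign depended on the constant added to CPM. The log2 ratio of Irf5 to Irf8 was -0.23 ± 0.41 in HTB and -0.53 ± 0.19 in LTB (SD, n = 5 each), a difference of 0.30 (exact permutation test, two-sided, p = 0.1746; 0.2183 adjusted over 5 ratios; 0.0397 adjusted, with a difference of 0.45, without HTB replicate 1).

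Irf9, the DNA-binding subunit of ISGF3, fell modestly and without overlap. It had 56.4, 49.5, 64.5, 62.4 and 76.8 CPM in HTB replicates 1 to 5, against 103, 90.4, 81.9, 92.6 and 85.0 CPM in LTB replicates 1 to 5. The highest HTB library was close to the lowest LTB library. The means were 61.9 ± 10.1 CPM in HTB and 90.5 ± 8.08 CPM in LTB (SD, n = 5 each), which is a log2 fold change of -0.54 ± 0.11 (SE; edgeR adjusted p = 0.0119). Irf9 lies at chr14:55603985-55610030 on the plus strand, and 123 bases of its exons are shared with the same-strand gene Rnf31, which was also lower (-0.40 ± 0.09, log2, SE; edgeR adjusted p = 0.0208).

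Irf3, present in most cells and activated after translation, was the only member with a positive fold change. It had 42.3, 36.6, 40.1, 36.7 and 38.6 CPM in HTB replicates 1 to 5, against 36.4, 37.3, 33.2, 39.1 and 34.6 CPM in LTB replicates 1 to 5. The groups overlapped between 36.6 and 39.1 CPM. The log2 fold change was 0.11 ± 0.07 (SE; edgeR adjusted p = 0.2892), and its 95% interval of -0.03 to 0.25 was the narrowest in the family. Irf3 lies at chr7:44997648-45002848 on the plus strand.

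Irf7, the interferon-inducible member that amplifies type I interferon, was the most variable of the abundant members. It had 107, 66.8, 150, 114 and 154 CPM in HTB replicates 1 to 5, against 293, 166, 111, 174 and 128 CPM in LTB replicates 1 to 5. LTB replicates 3 and 5 lay inside the HTB range, and HTB replicate 2 was the lowest of all. The means were 118 ± 35.6 CPM in HTB and 175 ± 71.3 CPM in LTB (SD, n = 5 each), which is a log2 fold change of -0.56 ± 0.28 (SE; 95% interval -1.18 to 0.06; edgeR adjusted p = 0.2126). It became -0.29 without LTB replicate 1 (adjusted p = 0.4686) and -0.15 without that library and HTB replicate 2 (adjusted p = 0.5470). Irf7 lies at chr7:141263169-141266499; the authors' table gives the plus strand and both RefSeq and GENCODE the minus strand.

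Irf3 served as the denominator for the interferon-inducible members. The ratio of Irf9 to Irf3 was 1.33, 1.35, 1.61, 1.70 and 1.99 in HTB replicates 1 to 5, against 2.82, 2.42, 2.46, 2.36 and 2.46 in LTB replicates 1 to 5. It was lower in every HTB library than in any LTB library, by -0.66 on the log2 scale (means 0.66 ± 0.24 in HTB and 1.32 ± 0.10 in LTB, SD, n = 5 each; exact permutation test, two-sided, p = 0.0079; 0.0198 adjusted over 5 ratios). For Irf7 over Irf3 the log2 means were 1.54 ± 0.46 in HTB and 2.19 ± 0.49 in LTB (SD, n = 5 each), a difference of -0.64 that did not pass (exact permutation test, two-sided, p = 0.0635; 0.1058 adjusted).

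**Figure D2:**
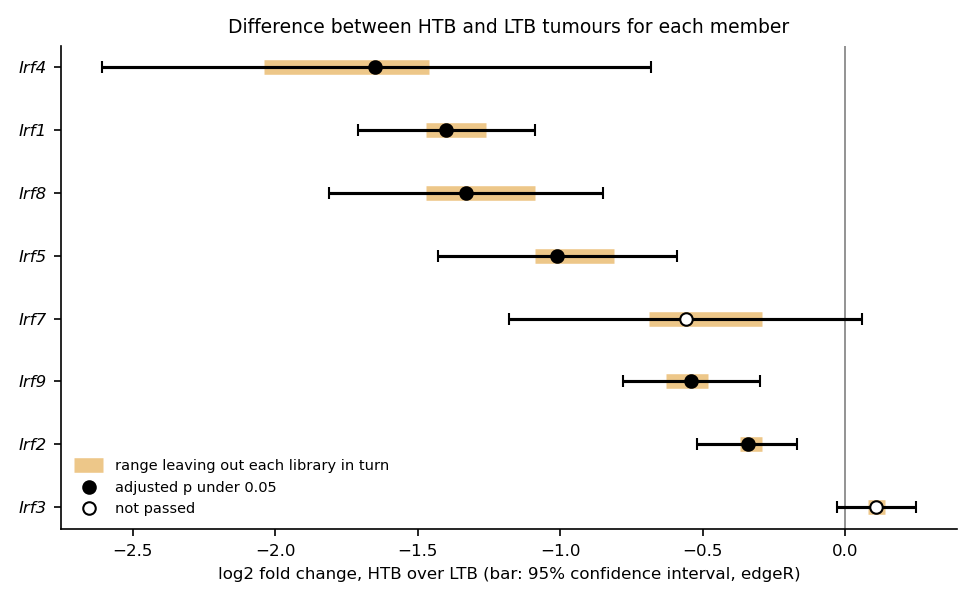
Log2 fold change of HTB over LTB for each IRF gene, from the edgeR fit, with a bar for the 95% interval, a filled point where the adjusted p is under 0.05 and a coloured band for the range when each library in turn is left out. Intervals of Irf1, Irf2, Irf4, Irf5, Irf8 and Irf9 lie below 0, and those of Irf3 and Irf7 cross it.

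**Figure D3:**
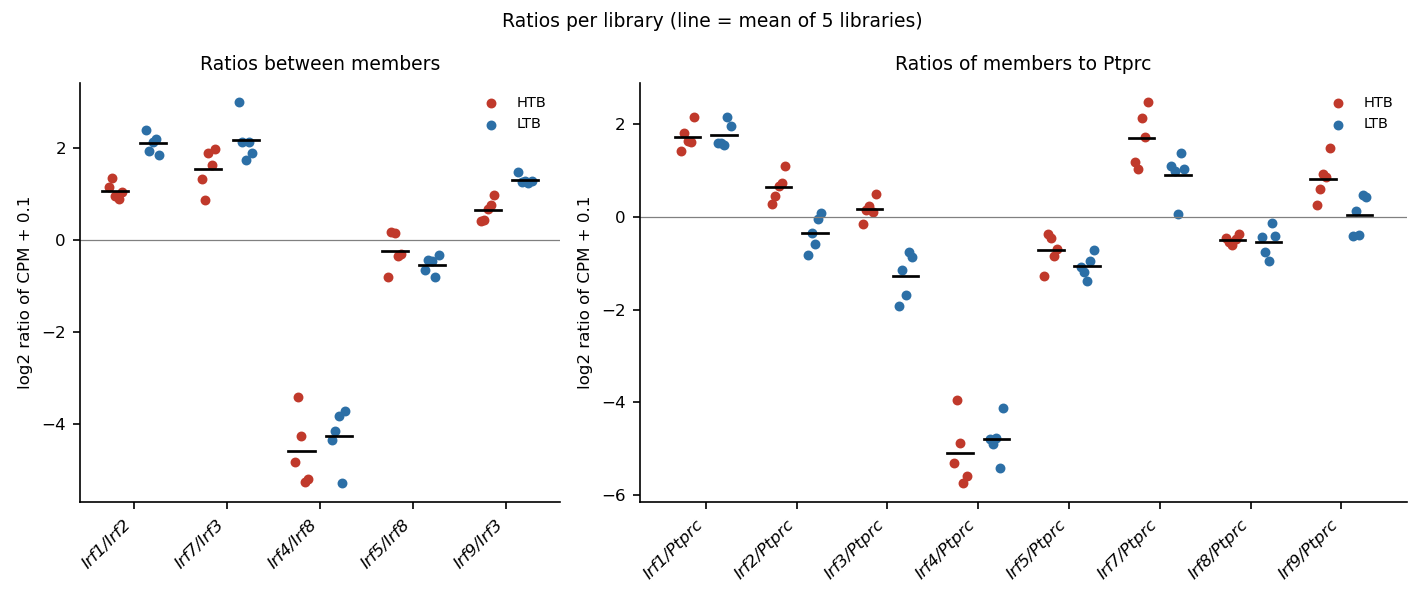
Log2 ratios of CPM between IRF genes (left panel) and of each IRF gene to the leukocyte gene Ptprc (right panel), 1 point per library, HTB left of LTB, with a line at the mean. The Irf1 to Irf2 and the Irf9 to Irf3 ratios do not overlap between the groups, with all HTB points below, and in the right panel the Irf2 and Irf3 ratios do not overlap, with all HTB points above.

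Together the 8 genes summed to 436 ± 47.7 CPM in HTB and 785 ± 181 CPM in LTB (SD, n = 5 each). Irf1 took 26.7% ± 3.49 of these reads in HTB and 38.9% ± 3.09 in LTB, and Irf3 took 8.97% ± 0.839 in HTB and 4.75% ± 0.851 in LTB (SD, n = 5 each). The order of the members depended on the length used. In CPM per kilobase of all exons, HTB tumours ran Irf7 (31.3 ± 9.43), Irf1 (29.0 ± 2.40), Irf9 (11.5 ± 1.88), Irf3 (11.3 ± 0.698), Irf2 (7.36 ± 0.746), Irf5 (7.32 ± 1.29), Irf8 (3.54 ± 0.747) and Irf4 (0.212 ± 0.127). Within HTB, the ranges of Irf7 and Irf1, of Irf9 and Irf3 and of Irf2 and Irf5 overlapped. In LTB tumours the order was Irf1 (76.7 ± 17.5), Irf7 (46.2 ± 18.9), Irf9 (16.8 ± 1.50), Irf5 (14.8 ± 4.37), Irf3 (10.5 ± 0.668), Irf2 (9.37 ± 0.757), Irf8 (8.93 ± 3.16) and Irf4 (0.669 ± 0.265), in CPM per kilobase. Irf4 was lowest in both groups. In LTB the ranges of Irf1 and Irf7, of Irf9 and Irf5 and of Irf3 and Irf2 overlapped. The LTB range of Irf8 overlapped those of Irf2, Irf3 and Irf5. With the longest coding transcript as the length, Irf1 led in both groups, at 53.9 CPM per kilobase in HTB and 143 in LTB, and Irf2 stood above Irf3 and Irf5 in both.

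Because several IRF genes are blood cell genes, they were also set against Ptprc, which encodes CD45, the phosphatase on the surface of leukocytes. Ptprc had 47.1, 32.8, 34.1, 34.3 and 27.4 CPM in HTB replicates 1 to 5, against 138, 83.0, 107, 66.4 and 63.0 CPM in LTB replicates 1 to 5, with a log2 fold change of -1.37 ± 0.22 (SE; edgeR adjusted p = 0.0052). The ratio of Irf3 to Ptprc was higher in every HTB library than in any LTB library, by 1.44 on the log2 scale (means 0.16 ± 0.23 in HTB and -1.27 ± 0.51 in LTB, SD, n = 5 each; exact permutation test, two-sided, p = 0.0079; 0.0317 adjusted over 8 ratios). Irf2 to Ptprc was likewise higher, by 0.98 (means 0.65 ± 0.31 in HTB and -0.34 ± 0.38 in LTB; exact permutation test, two-sided, 0.0317 adjusted). Both calls were lost without HTB replicate 4 or HTB replicate 5, at adjusted p = 0.0635 by the exact permutation test, where the smallest raw p that 4 libraries against 5 allow is 0.0159. The Irf1 and Irf8 ratios stood at -0.04 and 0.04 and those of Irf4, Irf5, Irf7 and Irf9 at -0.29, 0.34, 0.80 and 0.78, and none of these passed (exact permutation test, adjusted p of 0.0847 to 0.8333), although Irf9 passed without HTB replicate 1 (0.92, exact permutation test, adjusted p = 0.0423). A p that misses the threshold does not show that a member fell as much as Ptprc did. The outcome turned on the denominator: over Itgb2, another leukocyte gene, which fell by more (-1.85 ± 0.20, log2, SE), the Irf1 difference was 0.42 (exact permutation test, adjusted p = 0.0127), that of Irf8 0.50 (0.0181) and that of Irf5 0.81 (0.0127).

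Leukocyte, T cell and some dendritic cell markers were also lower in HTB, and their part in the IRF levels was not tested. By edgeR 7.51% of all tested genes were lower and 3.91% higher. Of 10 leukocyte markers 8 were lower, and their summed level was 307 to 481 CPM in HTB libraries and 673 to 1363 CPM in LTB libraries. Of 9 T cell markers 7 were lower (17.7 to 45.8 CPM summed in HTB and 44.6 to 205 in LTB), with Cd3d at -2.18 ± 0.50, a T cell receptor complex gene, and Lck at -1.68 ± 0.34, a T cell kinase gene (log2, SE; edgeR adjusted p = 0.0220 and 0.0124). Of 10 conventional dendritic cell markers 4 were lower (Flt3, Itgax, Ccr7 and Naaa). The remaining 6 did not pass: Xcr1, Clec9a, Cd209a, Kmo, Sirpa and Zbtb46, the last above 0 (0.19, log2). The 10 summed to 246 to 283 CPM in HTB tumours and 301 to 421 CPM in LTB tumours. Most of that level was Sirpa (means of 182 CPM in HTB and 236 CPM in LTB), so the sum says little about the scarcer markers. Of 10 macrophage markers 1 was lower, Cd68 (summed levels of 526 to 989 CPM in HTB tumours and 669 to 1250 CPM in LTB tumours), and of 8 plasmacytoid dendritic cell markers tested Bst2 was lower and Tcf4 higher. The other 6, Siglech, Ccr9, Cox6a2, Spib, Pacsin1 and Smim5, did not pass, and Bst2 is also in the list of antiviral genes below. B and plasma cell markers summed to 3.69 to 11.5 CPM in HTB tumours and 9.34 to 25.1 CPM in LTB tumours, and 3 of the 5 tested had an unadjusted p under 0.05 but none an adjusted one by edgeR. Of 2 tested markers of epithelial origin Cdh1 was lower (-1.36 ± 0.35, log2, SE, edgeR adjusted p = 0.0332) and Epcam did not pass (-0.89, adjusted p = 0.2947). Cdh1 lost its call in 6 of the fits that left out 1 library. No marker of any list was at 0 in all libraries. Cd68 kept its call (-0.64 ± 0.19, log2, SE; adjusted p = 0.0496) without LTB replicate 4 and lost it without any other single library, and Cd3d lost it without HTB replicate 3, 4 or 5 (adjusted p of 0.0540 to 0.0584).

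Upstream of the IRF genes, the interferon transcripts themselves were scarce. Ifnb1, the interferon beta gene that IRF3 and IRF7 switch on, had 8 reads in all HTB libraries together and 6 in all LTB libraries. Ifng, which encodes interferon gamma, had 1.17, 0.772, 0.768, 0.435 and 0.659 CPM in HTB replicates 1 to 5, against 14.0, 3.46, 4.44, 2.94 and 2.40 CPM in LTB replicates 1 to 5. All HTB values were below all LTB values (log2 fold change -2.83 ± 0.52, SE; edgeR adjusted p = 0.0089), and it was -2.11 when LTB replicate 1 was left out (adjusted p = 0.0039). The table held 9 interferon and receptor genes, of which 5 were tested and 2 were lower, Ifng and Ifngr1, the interferon gamma receptor chain gene (-0.32 ± 0.09, adjusted p = 0.0445). Ifnar1, a type I interferon receptor gene, stood at 0.14 ± 0.05 (adjusted p = 0.1143). Of all tested genes 7.51% were lower. The Ifngr1 call was kept without HTB replicate 1 or 2 and lost without any of the other 8 libraries, which left 1 gene of the list lower. In those 8 fits 4.12% to 6.61% of all tested genes were lower. Without HTB replicate 2 the list had 3, where 12.7% of all tested genes were lower.

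Of 10 JAK and STAT signalling genes 3 were lower, where 7.51% of all tested genes were, with a list median of -0.23. Among them Stat2, a partner of IRF9 in ISGF3, had 88.7, 77.5, 94.1, 81.7 and 125 CPM in HTB replicates 1 to 5, against 205, 160, 157, 171 and 159 CPM in LTB replicates 1 to 5. The groups did not overlap, and the log2 fold change was -0.86 ± 0.13 (SE; edgeR adjusted p = 0.0036). Socs1, a feedback inhibitor of JAK kinases, was at -1.05 ± 0.22 (adjusted p = 0.0132). Of 19 adaptors and kinases that activate IRF3, IRF5 and IRF7, 0 passed in either direction at an adjusted p under 0.05 by edgeR, although 7 had an unadjusted p under 0.05. By DESeq2 2 were lower, as were 2 in the edgeR fits without HTB replicate 2 or HTB replicate 5 and 1 without LTB replicate 4. Of all tested genes 10.3% were lower by DESeq2, and in those edgeR fits the share was 12.7% (HTB replicate 2 left out), 5.09% (HTB replicate 5) and 6.28% (LTB replicate 4). The lowest p-values in that list belonged to Cgas (-0.43, adjusted p = 0.0535), the cytosolic DNA sensor gene, Ticam2 (-0.88, 0.0958) and Myd88 (-0.39, 0.1166).

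Of 16 DNA-binding partners and co-regulators 3 were lower, where 7.51% of all tested genes were. Batf2, a BATF-family partner of IRF1, averaged 16.9 ± 2.96 CPM in HTB and 56.3 ± 15.9 CPM in LTB (SD, n = 5 each; log2 fold change -1.73 ± 0.19, SE; edgeR adjusted p = 7.69e-04). Prdm1, encoding BLIMP-1, was at -1.02 ± 0.25 (adjusted p = 0.0277) and Ikzf1, encoding the lymphoid factor Ikaros, at -0.80 ± 0.22 (adjusted p = 0.0396). With 1 library left out, the Prdm1 call was lost in 5 fits and the Ikzf1 call in 7. Their log2 fold changes then ranged from -1.16 to -0.79 and from -0.90 to -0.58. The list had 1 lower gene without HTB replicate 1, 3, 4 or 5 or LTB replicate 3, and 2 without LTB replicate 1 or 2. In these fits 4.12% to 6.61% of all tested genes were lower. Without HTB replicate 2 the list had 4 lower and 1 higher, where 12.7% of all tested genes were lower and 9.77% higher.

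Among target genes, all 20 genes known as IRF1 or IRF2 targets were lower, with a median log2 fold change of -1.68. The 3 with the smallest p were Gbp2, an interferon-induced GTPase gene, Tap1, a peptide transporter gene, and Tapbp, which encodes tapasin of class I loading. Gbp2 had 170, 177, 130, 119 and 185 CPM in HTB replicates 1 to 5, against 1337, 617, 905, 828 and 606 CPM in LTB replicates 1 to 5, without overlap (-2.45 ± 0.23, log2, SE; edgeR adjusted p = 5.93e-04). Tap1 averaged 116 ± 15.4 CPM in HTB and 344 ± 64.1 CPM in LTB, and Tapbp 240 ± 22.8 CPM in HTB and 538 ± 65.6 CPM in LTB (SD, n = 5 each; log2 fold changes -1.57 ± 0.13 and -1.15 ± 0.10, SE; each edgeR adjusted p = 5.93e-04). The count stayed between 17 and 20 when single libraries were left out, where 4.12% to 12.7% of all tested genes were lower. These genes were collected with earlier results of these data known.

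Of 22 antiviral genes induced by ISGF3 or IRF7, 6 were lower, and all 22 had a log2 fold change below 0, with a median of -0.53. Bst2, encoding tetherin, averaged 99.6 ± 13.9 CPM in HTB and 205 ± 75.1 CPM in LTB (SD, n = 5 each; log2 fold change -1.03 ± 0.21, SE; edgeR adjusted p = 0.0130). Zbp1, a nucleic acid sensor gene, was at -1.53 ± 0.18 (adjusted p = 0.0010), and Herc6, a ubiquitin-ligase-like gene, at -0.92 ± 0.17 (adjusted p = 0.0085). DESeq2 called 11 of the 22 lower, and 10.3% of all tested genes. The list of IRF1 or IRF2 targets was thus lower in every member and the antiviral list in 6 of 22, where 7.51% of tested genes were lower. With an unadjusted edgeR p under 0.05 the counts were 20 and 13. Both lists were chosen with earlier results of these data known, and the contrast between them was not tested.

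Windows of the target genes were searched for the same motifs. Of 17 antiviral genes that had a RefSeq window, 10 held an ISRE core, against 3.99% of all genes with a window, and 4 held a GAS match, against 9.55% of all. Of 12 IRF1 or IRF2 target genes that had a window, 3 (B2m, Cxcl10 and Gbp2) held an ISRE core and 1 a GAS match. These 3 were named for their motif. Windows of Gbp2 and Bst2 are shown to let the ISRE core be compared between a target of each list, with capitals marking the ISRE core and, in Bst2, an overlapping GAS match; the build is GRCm38.p6, with Gbp2 on the plus strand and Bst2 on the minus strand.
Gbp2, chr3:142620413-142620712: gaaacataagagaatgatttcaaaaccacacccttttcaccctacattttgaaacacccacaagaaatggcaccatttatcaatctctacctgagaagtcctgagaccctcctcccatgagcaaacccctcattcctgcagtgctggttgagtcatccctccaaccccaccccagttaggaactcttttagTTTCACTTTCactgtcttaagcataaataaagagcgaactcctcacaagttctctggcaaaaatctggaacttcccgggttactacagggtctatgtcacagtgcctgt
Bst2, chr8:71537423-71537722: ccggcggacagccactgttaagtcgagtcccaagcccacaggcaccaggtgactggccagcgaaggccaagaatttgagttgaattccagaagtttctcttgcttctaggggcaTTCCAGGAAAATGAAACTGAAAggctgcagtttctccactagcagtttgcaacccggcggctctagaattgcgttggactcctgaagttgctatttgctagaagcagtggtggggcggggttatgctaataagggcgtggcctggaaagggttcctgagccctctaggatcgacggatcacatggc
The Gbp2 match lies on the reverse strand and reads TTTCACTTTC in the window as printed, and Bst2 held a pair of overlapping cores, GAAAATGAAA and GAAACTGAAA. These letters describe the window and do not show binding.

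Genes associated with the blood cell members fell in part. Of 15 tested genes tied to IRF8 8 were lower (median -1.19), with the smallest p in Ctss at -1.76 ± 0.28 (log2, SE; edgeR adjusted p = 0.0047), a lysosomal protease gene, Cybb at -1.43 ± 0.28 (adjusted p = 0.0109), an oxidase subunit gene, and Id2 at -1.55 ± 0.32 (adjusted p = 0.0136), a dendritic cell regulator gene. The 7 that did not pass were Batf3, Xcr1, Clec9a, Cadm1, Wdfy4, Cst3 and Zbtb46, the last above 0 (0.19). Xcr1, Clec9a and Zbtb46 are also among the dendritic cell markers above. Of 15 tested genes tied to IRF4 8 were lower (median -1.20), led by Ccl22 (-2.42 ± 0.27, adjusted p = 9.53e-04), Arg1 (-3.64 ± 0.64, adjusted p = 0.0071), encoding arginase, and Ccl17 (-2.78 ± 0.51, adjusted p = 0.0090). Of 8 tested cytokine genes tied to IRF5 3 were lower, Ccl5 (-1.98 ± 0.39, adjusted p = 0.0116), Il12b and Tnf (adjusted p = 0.0302 and 0.0356), and their median was -1.99. Tnf stood at -1.20 without LTB replicate 1 (adjusted p = 0.0300), and Ccl17 at -2.11 without LTB replicate 5 (adjusted p = 0.0068). Of all tested genes 7.51% were lower, and their median was 0.02. These counts moved with single libraries: the IRF8 list had 3 lower genes without HTB replicate 3 or 4, 4 without LTB replicate 3 and 5 without LTB replicate 1. The IRF4 list had 4 without HTB replicate 3, HTB replicate 4 or LTB replicate 3. It had 5 without HTB replicate 1, HTB replicate 5 or LTB replicate 4, and the IRF5 list had 1 without HTB replicate 3 or LTB replicate 3. In these fits 4.12% to 6.28% of all tested genes were lower.

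**Figure D4:**
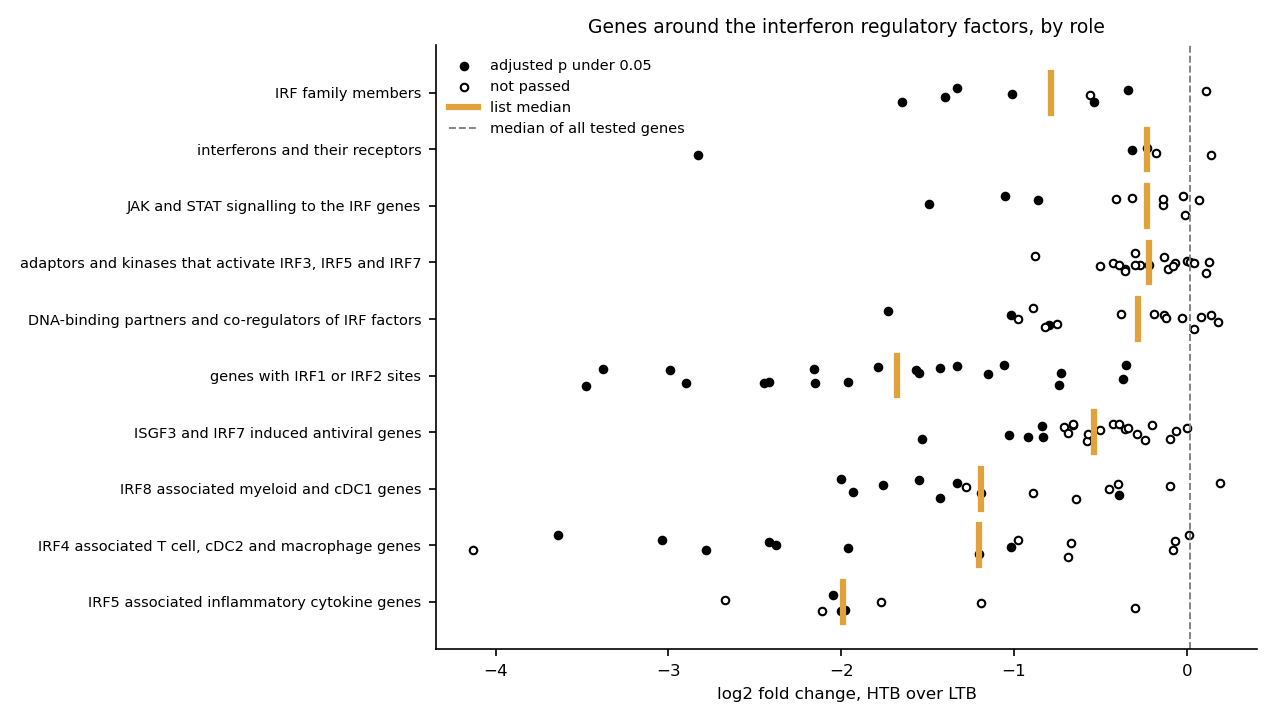
Log2 fold change of HTB over LTB for each gene of the pathway lists, 1 point per tested gene, with lists running down from ligands and receptors to targets, filled points where the adjusted p is under 0.05, a thick line at each list's median and a dashed line at the median of all tested genes. All 20 IRF1 or IRF2 targets (plotted as genes with IRF1 or IRF2 sites) lie below 0, and the adaptor and kinase list centres at -0.22.

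Profiles across the 10 libraries set the members apart, described by the root mean square difference of centred log2(CPM + 1) from each of 11787 genes. Among the genes most like Irf1 were Psmb8, an immunoproteasome subunit gene (0.112), and H2-T22, a class I-like gene (0.143), and Irf8 ranked 11 (0.188). For Irf7 they were Oasl1 (0.139), Isg15, a ubiquitin-like modifier gene (0.153), and Oas1g (0.154), and the nearest IRF gene was Irf9 at rank 48 (0.315). Irf1 and Irf7 thus each lay next to different genes. Irf1 itself ranked 7374 for Irf7 (0.582), while by the same difference Irf7 ranked 1242 for Irf1. The measure is not scaled to the size of each gene's changes, and Irf3, which did not pass, ranked 4100 for Irf7 (0.529). Isg15 had 49.4, 41.6, 67.1, 53.4 and 79.9 CPM in HTB replicates 1 to 5, against 153, 84.4, 62.2, 106 and 71.6 CPM in LTB replicates 1 to 5, overlapping between the groups as Irf7 did. For Irf8 the nearest included Il12rb2 (0.130) and Lax1 (0.155), with Irf1 at rank 14, for Irf5 Sdc3 (0.095), Tifa (0.129) and Fermt3 (0.149), and for Irf4 Plcb2 (0.180), Nlrp1b (0.205) and Ctsc (0.206). All libraries enter both profiles of each pair, so these values are descriptions with no test.

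**Figure D5:**
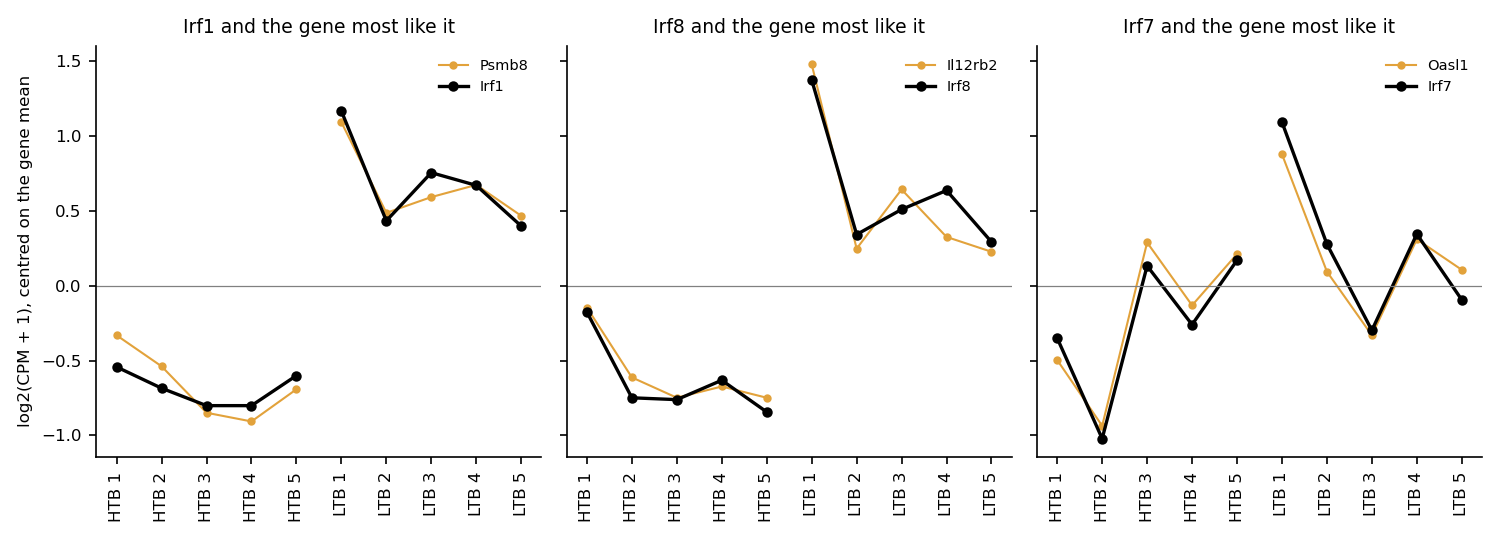
Centred log2(CPM + 1) of Irf1, Irf8 and Irf7, each with the gene most like it, in each of the 10 libraries, HTB left of LTB; lines link the points of a gene and the order of replicates carries no meaning. Irf1 is low in all 5 HTB libraries, while Irf7 varies within both groups.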

How the data were processed

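The deposited table held estimated counts per gene, per the file headers (86.4% of values were whole, within 1e-09), the authors' log2 fold change and their DESeq2 p-value and q-value, per the file headers. The sign of the authors' log2 fold change matched HTB over LTB in 100% of the genes they called. The build was GRCm38 (mm10), per the submitters' processing notes; no source used here names the aligner, the counter or its use of strand. RNA was extracted from whole tumours and made into SMARTER mRNA libraries, per the labels' protocols.

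Estimated counts were rounded, 1 line without a gene was left out, and 13469 genes that passed filterByExpr were fitted by group with edgeR 4.0.16 (TMM factors, quasi-likelihood test) in R 4.3.3, with Benjamini-Hochberg adjustment over all of them and a threshold of 0.05. The fit was tested on simulated data. CPM used TMM-scaled library sizes. Ratios were log2 of CPM plus 0.1 and compared by exact permutation tests in Python 3.11.15 with numpy 2.4.6, over 252 splits of 5 against 5. Alternatives used DESeq2 1.42.0, limma 3.58.1, other scaling and filters, and left-out libraries. Promoter windows came from RefSeq (GRCm38.p6), 11 for the 8 IRF genes.

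All 8 IRF genes are named, with the 3 tested genes of smallest p in each list and the 3 genes most like Irf1, Irf4, Irf5, Irf7 and Irf8. Other genes named for a motif, a marker or an overlap were chosen after their values were seen. Some genes that meet these rules are not reported here. Members and lists were chosen with earlier results of these data known. Totals of 23070917 to 27185168 reads limit the precision of low genes such as Irf4.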

Additional observations from a re-analysis of the deposited data

Results flagged for a closer look

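Of 42 group-wise comparisons of single libraries with the rest of their group, 4 found a library far from the others, where chance gives about 1 in 20, and 3 of the 4 concerned LTB replicate 1. Irf8 was 34.1 CPM in HTB replicate 1, against 21.1 to 24.6 CPM elsewhere in HTB, and 102 CPM in LTB replicate 1, against 47.6 to 60.7 CPM in the other LTB libraries. Irf5 was 65.4 CPM in LTB replicate 1, against 34.6 to 40.7 CPM in the other LTB libraries. The log2 ratio of Irf9 to Irf3 was 1.49 in LTB replicate 1, against 1.24 to 1.30 in the other LTB libraries. The same library had the highest summed leukocyte marker level of its group, 1363 CPM. The part of leukocyte content in these values was not tested.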

How the results depend on the processing

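All 8 IRF genes kept their direction in each of the 18 other settings. The count of lower members was 4 to 6 with 1 library left out, where 4.12% to 12.7% of all tested genes were lower. Of 279 recomputed values for comparisons, excluding single left-out libraries, 256 kept their direction and call or stayed close in count. Irf4 lost its call when low counts were not filtered (-1.63, adjusted p = 0.0505). By DESeq2 the lower genes numbered 2 for adaptors and kinases, 5 for partners, 11 for antiviral genes and 6 for IRF5 cytokines. It called 1 interferon or receptor gene higher, and of all tested genes 10.3% lower and 7.91% higher. Interferons and receptors had 1 lower gene with no filter and 1 with the replicate block, where 4.74% and 5.57% of all tested genes were lower. Without HTB replicate 2 and LTB replicate 1 together (chosen after seeing the data), 2 adaptors were lower, where 12.4% of all tested genes were. In that fit Irf2 itself was at -0.24. Without both libraries, ratio differences were -1.02 for Irf1 to Irf2, 0.18 for Irf5 to Irf8 and -0.56 for Irf9 to Irf3. They were 0.91 for Irf2 to Ptprc and 1.28 for Irf3 to Ptprc, and these ratios did not pass. For 4 against 4 the smallest exact permutation p is 0.0286, which the adjustment raised to 0.0714 for Irf1 to Irf2 and Irf9 to Irf3 and to 0.1143 for the ratios to Ptprc. With 1 added to CPM, Irf4 to Irf8 was 0.21 and Irf4 to Ptprc 0.25, both reversed. Over Itgb2 in place of Ptprc the differences were 0.42 (Irf1, reversed), 0.17 (Irf4, reversed), 0.81 (Irf5), 1.26 (Irf7), 0.50 (Irf8) and 1.24 (Irf9), and over Coro1a Irf8 was -0.17, reversed. The cause was not tested. With 1 library left out, log2 fold changes ranged from -0.37 to -0.29 for Irf2 and -2.04 to -1.46 for Irf4, and ratio differences from -1.10 to -0.95 (Irf1 to Irf2), -0.75 to -0.60 (Irf9 to Irf3), 0.20 to 0.45 (Irf5 to Irf8), -0.15 to 0.05 (Irf1 to Ptprc), 0.87 to 1.09 (Irf2 to Ptprc), 1.28 to 1.57 (Irf3 to Ptprc), -0.06 to 0.14 (Irf8 to Ptprc) and 0.61 to 0.92 (Irf9 to Ptprc). Counts of lower genes then ranged from 1 to 3 for interferons and receptors, 0 to 2 for adaptors and 1 to 4 for partners (0 to 1 higher). They ranged from 3 to 9 for the IRF8 list, 4 to 10 for the IRF4 list and 1 to 3 for IRF5 cytokines. In these fits 4.12% to 12.7% of all tested genes were lower and 1.30% to 9.77% higher.

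Over all tested genes, same-numbered libraries of the 2 groups correlated at 0.002 to 0.109, and 1 of 5, replicate 1, matched its own number best. Correlations among so few libraries do not exclude a pairing by replicate number. The SE of the Irf8 log2 fold change was 0.09 with the replicate block and 0.22 without it. With the replicate block, 750 genes were lower and 221 higher, against 1011 and 526 without it, and the 6 lower members kept their calls. Irf9 to Ptprc was 0.78 with the block. Its adjusted p of 0.0065 came from a test other than the exact permutation test, whose smallest raw p is 0.0079. It is thus not comparable with the 0.0847 of that test. DESeq2 called 1384 lower and 1065 higher. Depth limits Irf4, with 0.476 to 2.03 CPM in HTB, and Ifnb1, with 8 and 6 reads.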

Other observations

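Genes of IRF2-binding co-repressors did not pass: Irf2bp1 was at 0.04, Irf2bp2 at -0.13 and Irf2bpl at 0.18 (log2, edgeR adjusted p of 0.5965, 0.2910 and 0.1340). Spi1, encoding PU.1, averaged 18.0 ± 4.74 CPM in HTB and 32.0 ± 13.2 CPM in LTB, and Batf 1.30 ± 0.486 CPM in HTB and 2.57 ± 1.65 CPM in LTB (SD, n = 5 each); neither passed (edgeR adjusted p = 0.0772 and 0.1399).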
